A study of Mus musculus with 7 samples.

Results

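Pancreatic alpha and beta cells shared 882 regions of open chromatin that had no peak in delta cells. These regions were chosen by presence and absence of peaks in ATAC-Seq, in which the Tn5 transposase cuts and tags accessible DNA. Overlapping peak intervals of 7 libraries were merged into 834695 regions, and a region was kept when both alpha libraries and at least 2 of the 3 beta libraries had a peak in it and neither delta library did. The 882 regions were 0.66% of the 133698 regions with a peak in at least 2 libraries. Their presence in alpha and beta and absence in delta was set by this choice and is no result.

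All cells came from triple transgenic mice that carried mIns1-H2b-mCherry, in which an Ins1 promoter drives a nuclear red protein in beta cells, together with Rosa-LSL-YFP and either Gcg-Cre or Sst-Cre, which switch on a yellow protein in cells that express, or once expressed, glucagon or somatostatin. Cells of several mice were pooled by sex and separated by fluorescence-activated sorting into alpha (n = 2 libraries), beta (n = 3), and delta (n = 2) cells, with no treatment in any group. Each mouse carried the beta cell reporter together with that of alpha or delta cells, so libraries of different groups may share animals, and the labels do not say which. Peaks were called in each library on its own. As the values are those of sorted populations, fewer open cells and less open chromatin per cell cannot be told apart.

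The peak lists differed in size and strength, and this bears on every count below. A list held from 75860 peaks in delta 2 to 518503 peaks in beta 1, and the share of peaks with a false discovery rate at or below 1%, written as a -log10 q of at least 2, ran from 5.0% in beta 1 to 54.9% in delta 2. The deposited name of the beta 1 list says alpha, and those of the beta 2 and beta 3 lists say delta. Groups were taken from the sample labels, so each beta value rests on those labels. At the 5′ ends of marker genes, Gcg had a peak in both alpha libraries and delta 2 and in no beta library, and Ins1 had a peak in all 7 libraries. The highest -log10 q at Ins1 was 7.34, 1.82, and 6.39 in beta 1, 2, and 3. It was 0.736 and 1.42 in alpha 1 and 2, and 3.42 and 0.889 in delta 1 and 2. Ins2 had a peak in beta 3 alone, with a -log10 q of 1.43. Sst had a peak in both delta libraries and in beta 1. The highest -log10 q there was 0.951 in delta 1, 0.966 in delta 2, and 2.34 in beta 1, so only beta 1 reached 2. Of 5 delta marker genes, beta 2 and beta 3 had a peak at 0, beta 1 and each alpha library at 4, and each delta library at 5. Of 7 alpha marker genes, 7 had a peak in each alpha library, 3 to 6 in a beta library, and 6 or 7 in a delta library. Of 7 beta marker genes the beta libraries had a peak at 3 to 6 and the others at 4 or 5, and Slc2a2, the glucose transporter of mouse beta cells, had none in any library. Of the 15 acinar, duct, endothelial, and immune marker genes found in the annotation, 1 to 5 had a peak in a library. Without beta 1, 253 regions met the rule.

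Alpha cells secrete glucagon, beta cells secrete insulin, and delta cells secrete somatostatin, which restrains both. They arise from a common endocrine progenitor, and much of what tells them apart is the set of enhancers and promoters that are open. MAFA, a large MAF transcription factor of mouse beta cells, binds MAF recognition elements and activates insulin transcription. FOXA proteins open chromatin in endoderm-derived cells, and AP-1 dimers of FOS and JUN proteins bind enhancers in many tissues.

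In 13 regions all 5 alpha and beta libraries had a peak that passed the -log10 q of 2. The sequence around the summit is shown for 5 of these, which hold matches to the motifs described below. The bases are those of the plus strand of GRCm38 (mm10) from RefSeq, at most 300 per region, and capitals mark a match on either strand to TGCTGA (the first bases of a MAF recognition element), TGANTCA (AP-1), TGTTTAC (FOXA), TAATTA (homeobox core), or CAGATGG (an E-box bound by NEUROD1).
Region nearest Snx30, chr4:59823578-59823877: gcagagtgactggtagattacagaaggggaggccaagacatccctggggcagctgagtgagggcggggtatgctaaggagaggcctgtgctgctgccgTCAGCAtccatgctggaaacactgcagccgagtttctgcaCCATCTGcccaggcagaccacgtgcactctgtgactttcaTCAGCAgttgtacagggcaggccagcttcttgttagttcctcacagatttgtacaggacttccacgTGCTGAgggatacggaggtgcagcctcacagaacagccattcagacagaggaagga
Region nearest Pcdh15, chr10:72981401-72981700: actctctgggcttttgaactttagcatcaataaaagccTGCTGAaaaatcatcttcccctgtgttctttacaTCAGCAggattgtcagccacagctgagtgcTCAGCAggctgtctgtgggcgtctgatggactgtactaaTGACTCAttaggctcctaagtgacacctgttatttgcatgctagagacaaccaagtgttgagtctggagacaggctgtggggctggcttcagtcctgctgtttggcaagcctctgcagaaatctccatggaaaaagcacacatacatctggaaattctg
Region nearest Smoc2, chr17:14379152-14379451: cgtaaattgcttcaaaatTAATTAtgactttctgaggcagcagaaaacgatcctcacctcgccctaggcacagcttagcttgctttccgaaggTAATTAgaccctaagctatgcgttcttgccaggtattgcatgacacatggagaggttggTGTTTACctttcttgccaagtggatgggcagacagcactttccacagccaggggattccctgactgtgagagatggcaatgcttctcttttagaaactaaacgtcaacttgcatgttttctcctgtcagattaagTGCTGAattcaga
Region nearest Cntnap5b, chr1:99760023-99760322: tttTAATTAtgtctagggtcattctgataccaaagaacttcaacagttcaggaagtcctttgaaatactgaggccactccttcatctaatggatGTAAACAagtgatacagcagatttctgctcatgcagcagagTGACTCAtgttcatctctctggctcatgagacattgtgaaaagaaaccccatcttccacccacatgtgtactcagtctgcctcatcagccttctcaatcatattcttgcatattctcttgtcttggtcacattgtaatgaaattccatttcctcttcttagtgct
Region nearest Fbxo11, chr17:88195328-88195627: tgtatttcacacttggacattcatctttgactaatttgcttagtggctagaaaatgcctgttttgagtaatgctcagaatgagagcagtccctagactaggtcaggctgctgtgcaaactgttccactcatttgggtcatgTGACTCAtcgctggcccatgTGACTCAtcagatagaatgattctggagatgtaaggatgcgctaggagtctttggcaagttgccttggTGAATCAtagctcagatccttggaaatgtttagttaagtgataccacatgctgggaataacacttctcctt

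The regions nearest Snx30 and Pcdh15 each held 3 matches to TGCTGA, and the region nearest Fbxo11 held 3 matches to TGANTCA. The region nearest Smoc2 held 1 FOXA match beside 2 homeobox matches and 1 match to TGCTGA. The 7-base MAF motif TGCTGAC, which contains TGCTGA, is compared between sets below, so sites of regions with strong peaks are shown as well. Each line gives 27 bases of the strand that reads TGCTGAC, with that MAF motif in capitals. Regions with a -log10 q of at least 2 in both alpha and at least 2 beta libraries are called core regions here. Of these 8 held TGCTGAC, and the first 6 lines are from 6 of them, without those nearest Pik3c3 and Lhx4. The last line, upstream of Ins1, was picked after its values were seen.
Site nearest Tas2r144, chr6:42222509-42222535, minus strand: gcaaaaaactTGCTGACtcctgaccta
Site nearest Snx30, chr4:59823665-59823691, minus strand: ccagcatggaTGCTGACggcagcagca
Site nearest 3425401B19Rik, chr14:32708940-32708966, minus strand: gtgcgtggccTGCTGACtccagctgtc
Site nearest A630095E13Rik, chr9:36643570-36643596, minus strand: actgctgtttTGCTGACcaaatcataa
Site nearest Lrrc4, chr6:28864838-28864864, minus strand: aatggaaaccTGCTGACtccaggcctt
Site nearest Edil3, chr13:89122277-89122303, minus strand: aatagattacTGCTGACctccaattct
Site nearest Ins1, chr19:52252434-52252460, minus strand: gcagcttttgTGCTGACtcaaataatt

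The MAF motif lay 22 bases from the summit in the region nearest Lrrc4, 48 bases in those nearest Edil3 and Ins1, and 128 bases in the promoter of A630095E13Rik. In the Tas2r144, 3425401B19Rik, Lrrc4, and Ins1 sites it was followed by tc, and in the Ins1 site by tca, which completes an AP-1 match that overlaps the MAF motif.

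The 882 regions were weaker than the usual shared peak in 4 of the 5 libraries. Strength is given as the percentile of a peak by -log10 p within its own list. It compares peaks of 1 list and not of different libraries, since a -log10 q of 2.44 stood at the 96.1 percentile in the long list of beta 1 and one of 2.41 at the 69.9 percentile in alpha 1. The median percentile was 61.4 in alpha 1 and 60.1 in alpha 2, against 70.7 and 69.5 for all regions of at least 2 libraries. It was 53.8 in beta 2 and 45.3 in beta 3, against 69.0 and 71.8. In beta 1 it was 85.6 against 48.1, and this list is made mostly of weak peaks, many of them tied. For the 17759 regions open in all 7 libraries the medians lay between 86.4 and 97.8. The -log10 q threshold of 2 was reached by 51.8% and 61.7% of the regions in alpha 1 and alpha 2, and by 25.4%, 43.9%, and 46.0% of those with a peak in beta 1, 2, and 3.

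**Figure D1:**
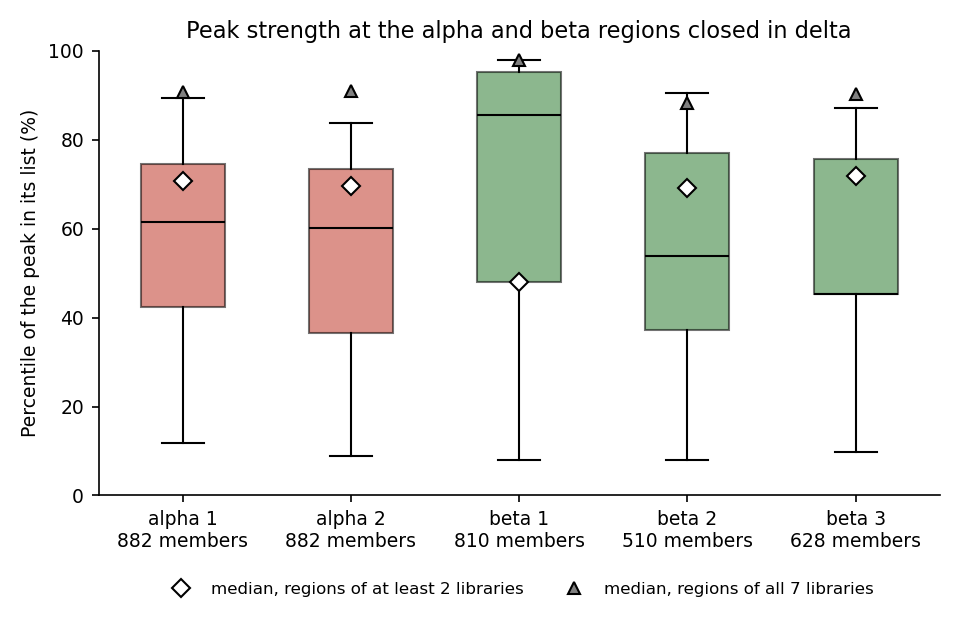
Percentile of each region's peak within its own list, by library, for the regions with a peak in that library (boxes are quartiles with the median, whiskers the 5th and 95th percentiles). Diamonds and triangles are medians over regions of at least 2 and of all 7 libraries, and the boxes lie below the triangles in every library while beta 1 alone has its median above the diamond.

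The beta libraries divided the regions unevenly. A peak in all 3 beta libraries was found in 184 regions (20.9%), in beta 1 and 3 only in 372 (42.2%), in beta 1 and 2 only in 254 (28.8%), and in beta 2 and 3 only in 72 (8.16%). Thus 810 regions had a peak in beta 1. Of the regions with all 3, 35 (19.02%) were core regions, and of those with beta 1 and 2 only, 4 (1.57%) were. In all there were 68 core regions, 0.0509% of the regions of at least 2 libraries, and 100 of the 882 had no peak with a -log10 q of 2 in any library.

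Most chromatin that alpha and beta cells share was also open in delta cells. Of 28115 regions with a peak in both alpha and at least 2 beta libraries, 24339 (86.6%) had a peak in both delta libraries, 2894 (10.3%) in 1 of them, and 882 (3.14%) in none. Just outside the rule, 2224 of the 2894 had a peak in delta 1 alone and 670 in delta 2 alone, and the median delta percentile there was 74.0 in delta 1 and 46.3 in delta 2. Another 3068 regions failed by having 1 beta library, and 2450 by having 1 alpha library. In both of these sets the median percentiles in beta 2 and beta 3 were 53.8 and 45.3, the same values as inside the rule. Many tied peaks share these values, so equal medians do not mean equal strength. Of the regions with a beta 2 peak, 32.5% and 34.7% reached a -log10 q of 2 in these sets, against 43.9% inside the rule. For beta 3 the shares were 31.0% and 33.6%, against 46.0%. These are values of the rule itself and carry no test.

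The chromatin next to the regions was not empty in delta cells. The nearest delta 1 peak lay at a median of 4.49 kb and the nearest delta 2 peak at 9.79 kb, and within 1 kb of a region delta 1 had a peak in 184 cases (20.9%) and delta 2 in 100 (11.3%).

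Regions lay near promoters less often than other regions shared by alpha and beta cells, and more often than those shared by beta and delta cells. Promoter-proximal regions, within 3 kb of a transcription start site (TSS), were 228 of 882 (25.9%, 95% Wilson interval 23.1 to 28.8), against 26.9% of regions of at least 2 libraries. Among regions with a peak in both alpha and at least 2 beta libraries, 56.4% were promoter-proximal where both delta libraries had a peak and 31.997% where 1 did. The interval covers counting error only. Introns held 296 (33.6%) and distal-intergenic DNA 325 (36.8%, 33.7 to 40.1), with 23 in exons, 8 in UTRs, and 2 just downstream of a gene. The 2 most alike sets are regions open in alpha and delta with no beta peak (1906, 1.43% of regions of at least 2 libraries) and regions open in beta and delta with no alpha peak (1882, 1.41%). These were 29.2% (27.2 to 31.3) and 16.8% (15.2 to 18.6) promoter-proximal. The share was above that of the beta and delta set on 17 of 20 chromosomes and below that of the alpha and delta set on 13 of 20. Distal-intergenic shares ran the other way, at 31.4% in the alpha and delta set and 42.8% in the beta and delta set, and regions open in all 7 libraries were 61.4% promoter-proximal. Set sizes cannot be set against each other, since a closed beta group needs 3 lists without a peak, with beta 1 among them, and a closed delta group needs 2.

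**Figure D2:**
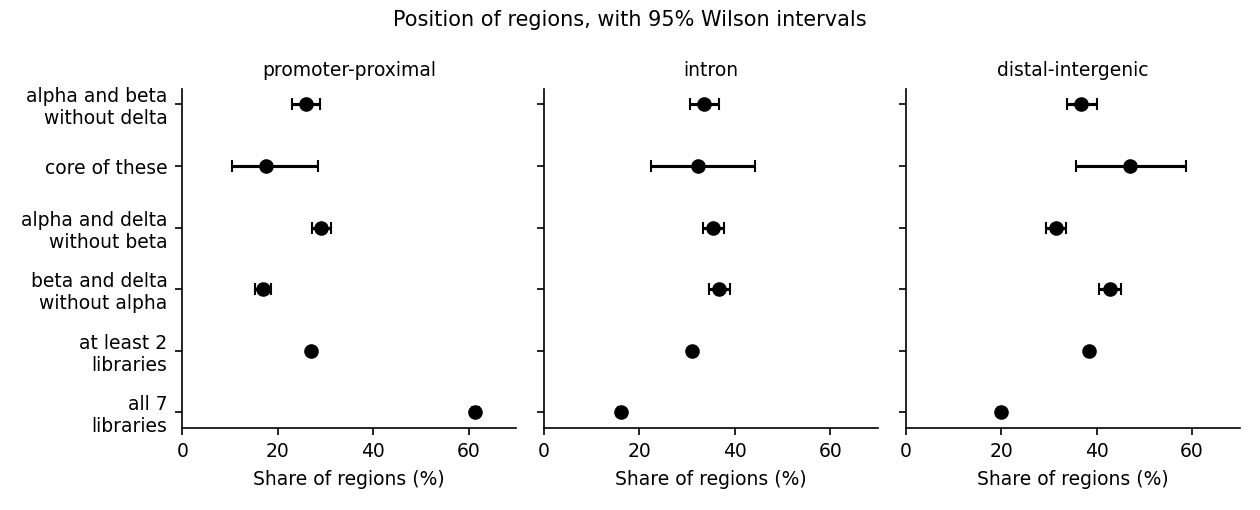
Share of regions (%) that are promoter-proximal, intronic, or distal-intergenic in 6 sets of regions, with 95% Wilson intervals. The alpha and beta set, at 25.9% promoter-proximal, sits between the beta and delta set at 16.8% and the alpha and delta set at 29.2%, and all of these lie far below the 61.4% of regions open in all 7 libraries.

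Core regions were less often promoter-proximal and more often distal-intergenic than all 882, with wide intervals. Of 68, 12 (17.6%, 10.4 to 28.4) were promoter-proximal and 32 (47.1%, 35.7 to 58.8) distal-intergenic, and both intervals overlap those of all 882. As core regions are part of the 882, this overlap is no test of a difference. A region was 444.5 bp wide in the median, against 367 bp for regions of at least 2 libraries and 710 bp for those of all 7, and its nearest protein-coding 5′ end was 50.2 kb away in the median.

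Of the 13 regions that were strong in all 5 libraries, the one with the highest lowest-percentile was in an intron of Snx30, which encodes a sorting nexin of endosomes, at chr4:59823520-59823912, 17.7 kb from the 5′ end. Its percentiles were 90.7 and 83.8 in alpha 1 and 2 and 98.9, 80.6, and 95.8 in beta 1, 2, and 3. All 5 peaks were thus above the 80th percentile of their lists. In an intron near Stx7, which encodes a SNARE protein of late endosomes, the region at chr10:24173040-24173628 had percentiles of 79.7 and 72.7 in alpha and 95.5, 81.1, and 92.6 in beta. Upstream of Ndufc2, a gene for a subunit of respiratory complex I, a region 3.47 kb away had 80.7 and 71.3 in alpha and 95.7, 87.7, and 76.5 in beta. The fold enrichments of alpha and beta libraries overlap in each of these regions, at 8.52 and 6.91 in alpha and 7.86, 4.86, and 12.5 in beta for Snx30.

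A region in an exon annotated near Slc26a7, which encodes an anion exchanger, had percentiles of 74.6 and 78.9 in the alpha libraries and 96.6, 91.8, and 90.8 in the beta libraries, each within its own list. The fold enrichment was 4.50 and 5.87 in alpha and 4.17, 7.14, and 8.03 in beta. The lowest of the 5 was that of beta 1, whose list also had the lowest median fold. The Pcdh15 region had percentiles of 74.6 and 69.5 in alpha and 97.8, 90.3, and 87.2 in beta. Pcdh15 encodes a protocadherin known from sensory hair cells, and the region lay 118 kb from its 5′ end. The Smoc2 region, in an intron 99.5 kb from the 5′ end of this gene of a matrix protein, had 77.9 and 66.7 in alpha and 99.4, 69.0, and 88.8 in beta.

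**Figure D3:**
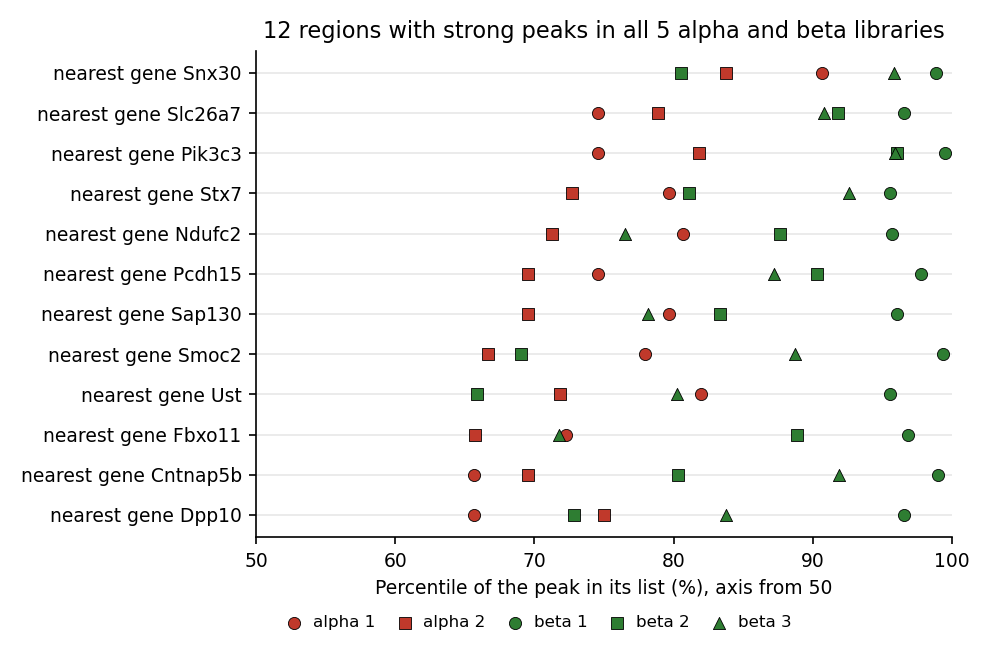
Percentile of the peak in its own list (%, axis from 50) for 12 regions with a -log10 q of at least 2 in all 5 alpha and beta libraries, 1 row per region named by its nearest protein-coding gene. Beta 1 is at 95.5 or above in each row, and the lowest value of a row runs from 65.6 to 80.6.

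The other named regions lay near Ust, which encodes a sulfotransferase of proteoglycan chains, Fbxo11, for an F-box protein, Cntnap5b, for a cell adhesion protein, Dpp10, for an auxiliary subunit of potassium channels, and Pik3c3 and Sap130. The Pik3c3 region, 645 kb from the 5′ end of this gene of a lipid kinase that acts in autophagy, had the highest beta values of the 12, at 99.5, 96.1, and 95.9, with 74.6 and 81.9 in alpha. The Sap130 region, 5.32 kb upstream of a gene of a corepressor complex, had 79.7 and 69.5 in alpha and 96.1, 83.4, and 78.1 in beta. Over the remaining 4 the lowest percentile in any library lay between 65.6 and 65.9. The last of the 13 lay near Pura.

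Few gene starts opened in alpha and beta cells with no delta peak nearby. Of 21938 protein-coding genes, 74 had a region within 1 kb of the 5′ end, and 34 of these also had a delta peak within that window outside the region. The other 40 genes were 0.182% of all, and 3 of their regions were core regions, at A630095E13Rik, Slitrk1, and Nxph4. As the absence of a delta peak helped choose them, their count is a description.

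At Zic2, which encodes a zinc finger transcription factor, the region had percentiles of 69.9 and 71.9 in alpha 1 and 2, 86.9 in beta 1, and 77.9 in beta 3, with no peak in beta 2. Dapl1 had 74.6 and 69.5 in alpha and 90.9 and 92.7 in beta 1 and 3. Pou4f2, a POU homeobox gene known from retinal ganglion cells, had 76.5 and 76.96 in alpha and 85.6 and 67.5 in beta 1 and 3. In all 3 genes beta 2 had no peak. At Zic2 the fold enrichment was 4.0 and 4.67 in alpha, 2.68 in beta 1, and 4.79 in beta 3. Beta 1, whose list had the lowest median fold, was below both alpha libraries, and beta 3 was above both.

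Slitrk1, whose product organises synapses, had percentiles of 81.5 and 64.1 in alpha and 97.1 and 65.5 in beta 1 and 2, with no peak in beta 3. Nxph4, for a neurexophilin that is secreted and binds neurexins, had 72.5 and 87.9 in alpha and 48.1, 70.6, and 66.7 in beta. At Adcy7, which encodes an adenylyl cyclase, all 5 libraries had a peak, at 59.1 and 60.1 in alpha and 90.9, 53.8, and 71.8 in beta. Of these 3 genes only Slitrk1 and Nxph4 had a -log10 q of at least 2 in both alpha and 2 beta libraries. The other named gene starts were those of A630095E13Rik, Itga9, an integrin gene, Mpzl3, and Kdm2b, a gene of a histone demethylase, with lowest percentiles of 45.3 to 65.6.

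The regions were scattered over many genes. Assigned to the nearest protein-coding gene at any distance, they fell to 808 genes, of which 65 had at least 2 regions and 8 at least 3. Pik3c3 had the most, with 4 regions 342 to 802 kb from its 5′ end, 2 of them core, out of 118 regions of at least 2 libraries nearest to it. Slc30a5, which encodes a zinc transporter, had 3 of 22, at 11.2 to 370 kb, of which 1 was core. Hace1, a ubiquitin ligase gene, had 3 of 117, and Chl1, a cell adhesion gene, had 3 of 53. Lrp1b, a lipoprotein receptor gene, had 3 of 89, and 4930452B06Rik had 3 of 63. Of these 6 genes Slc30a5 had the highest share of its regions among the members, at 13.6%.

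Lists of genes with known roles in the islet held 0 to 5 regions each. Within 100 kb, 550 of the 21938 genes (2.51%) were nearest to at least 1 region, and 0.659% (0.607 to 0.716) of the regions of at least 2 libraries assigned to them were members. Of 40 islet transcription factor genes 2 had a region, Mnx1 and Prox1, and 0.484% (0.133 to 1.75) of their regions were members. None of 19 alpha and none of 19 delta marker genes had one, nor did any of 17 genes of granules and prohormone processing, 27 of glucose sensing, or 40 of cell adhesion and synapse organisers, and with 0 of 137 to 386 regions the upper limits of these shares were 0.985% to 2.73%, all above the share over all genes, so these zeros are not distinguishable from it. Nor did any of 20 duct, endothelial, and immune marker genes, with 0 of 82 regions. In the other 10 lists 3.13% to 16.1% of the genes had a region, above the 2.51% of all genes, with 1 to 5 genes each. This share does not allow for how many regions of at least 2 libraries lie near a gene. Of those regions 0.347% to 1.95% were members, against 0.659% over all genes. Transcription factors, cAMP signalling, and Wnt, Hippo, and TGF-beta genes were below that, at 0.484%, 0.461%, and 0.347%. MAPK signalling genes had 5 of 256 (1.95%, 0.837 to 4.49), and potassium channel genes had 3 of 250 (1.20%, 0.409 to 3.47). The MAPK interval begins above the share over all genes, and those of the transcription factors and potassium channels hold it. MAPK genes were above all genes in the alpha and delta set too, at 2.73% against 1.59%. The same held in the beta and delta set, at 2.34% against 1.22%. With 16 lists read side by side and no test, the MAPK share is a count of 5 regions, near Fgfr1, Mapk10, Sos1, Map3k1, and Spry2. The remaining lists had 1 or 2 regions each: calcium and sodium channels 2 of 245 (Scn1a and Cacnb4), exocytosis 2 of 208 (Cplx1 and Cadps), inhibitory receptors 2 of 145 (Galr1 and Sstr4), cAMP signalling 1 of 217 (Pde10a), Wnt, Hippo, and TGF-beta 1 of 288 (Lrp6), acinar markers 1 of 57 (Ptf1a), and beta cell markers 1 of 136 (Ins1). Of the MAPK regions the one near Spry2, an inhibitor of receptor tyrosine kinase signalling, had percentiles of 97.2 and 81.9 in alpha 1 and 2, 97.8 in beta 1, and 9.75 in beta 3. Near Fgfr1, a fibroblast growth factor receptor gene, the percentiles were 76.7 and 54.5 in alpha and 85.1 and 63.9 in beta 1 and 3.

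Mnx1 was the only list gene with a core region. It encodes a homeobox factor needed for beta cell development, and the region at chr5:29478365-29478901 covers its 5′ end. A delta peak lay within 1 kb of that 5′ end, outside the region, so Mnx1 is not among the 40 gene starts without one. The percentiles of the region were 65.6 and 67.3 in alpha 1 and 2, and 98.5, 69.0, and 17.1 in beta 1, 2, and 3. The -log10 q was 0.958 in beta 3 and above 2 in the other 4 libraries. The region 4.01 kb from the 5′ end of Prox1, a homeobox factor of pancreatic progenitors, had 23.4 and 53.1 in alpha and 86.9 and 24.1 in beta 1 and 2.

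The 1 region within 100 kb of a beta cell marker gene lay 11.6 kb upstream of Ins1, at chr19:52252227-52252723. Its percentiles were 65.6 and 67.0 in alpha, 48.1 in beta 1, and 82.5 in beta 3, with no peak in beta 2. The -log10 q was 2.16 and 2.95 in alpha 1 and 2, 4.47 in beta 3, and 0.0774 in beta 1. So 3 of the 4 peaks passed the stricter threshold, and this is not a core region because only 1 beta library did.

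Among signalling and secretion genes, the region at the 5′ end of Cplx1, whose product complexin clamps and promotes vesicle fusion, had percentiles of 42.4 and 64.2 in alpha and 48.1 and 53.8 in beta 1 and 2. In an intron of Kcnma1, which encodes a calcium-activated potassium channel, the values were 81.2 and 66.1 in alpha and 90.9 and 71.8 in beta 1 and 3. The somatostatin receptor gene Sstr4 had a region 0.144 kb from its 5′ end, with 1.56 and 36.6 in alpha and 48.1, 67.9, and 84.9 in beta. The galanin receptor gene Galr1 had one 0.36 kb upstream, with 85.0 and 73.3 in alpha and 94.5 and 91.8 in beta 1 and 2. Sstr4 was thus near the bottom of the alpha 1 list, and Galr1 was at 73.3 or above in each of its 4 lists. Galr1 also had a delta peak within 1 kb of its 5′ end, outside the region, and Sstr4 had none in that window. These genes were named after their values were seen.

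The rule did not use the sequence of the regions. Outside promoters they held MAF motifs more often than the 2 most alike sets and than regions of at least 2 libraries. The intervals of regions open in alpha alone, with 1 delta library, or with only 1 alpha library and no delta peak overlapped theirs, as given below. TGCTGAC was found on either strand within 150 bases of the summit in 76 of 654 regions outside promoters (11.6%, 9.39 to 14.3). Over all 97707 regions of at least 2 libraries outside promoters the share was 6.97% (6.81 to 7.13). It was 7.70% (6.4 to 9.25) in the alpha and delta set and 6.58% (5.46 to 7.92) in the beta and delta set, and both intervals end below that of the alpha and beta set. By chromosome the share was higher than in the alpha and delta set on 15 of 20, and higher than in the beta and delta set on 14 of 20. Of 82 matches, 41 lay within 50 bases of the summit.

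In regions that met the alpha and beta parts of the rule, the share of TGCTGAC was lowest where both delta libraries had a peak. Among regions outside promoters with a peak in both alpha and at least 2 beta libraries, it was 11.6% with no delta peak, 10.4% (9.10 to 11.8) with 1, and 7.56% (7.07 to 8.08) with both. The intervals for no and 1 delta library overlap, and both lie above that for both delta libraries. With delta 1 alone it was 10.1% (8.65 to 11.7), and with delta 2 alone 11.3% (8.74 to 14.6). Just outside the rule, regions with no delta peak but only 1 beta library held it in 7.85%. Those with only 1 alpha library held it in 8.6% (7.44 to 9.93). Their intervals both overlap that for both delta libraries, and only the second overlaps that of the alpha and beta set. Absence of a delta peak thus did not always go with a higher share of TGCTGAC. Regions open in both alpha libraries alone held it in 10.5% (9.39 to 11.8), those open in beta alone in 6.89% (6.45 to 7.35), and those open in both delta libraries alone in 6.34% (5.40 to 7.44). The interval of the alpha and beta set overlaps that of the alpha set and lies above those of the beta and of the delta sets. Among promoter-proximal regions the share was 11.8% (8.27 to 16.7) in the alpha and beta set, 7.37% (5.48 to 9.85) in the alpha and delta set, 6.31% (4.12 to 9.54) in the beta and delta set, and 5.83% (5.59 to 6.07) over regions of at least 2 libraries. The interval of the alpha and beta set there overlaps those of the 2 other sets and lies above that of all regions of at least 2 libraries.

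**Figure D4:**
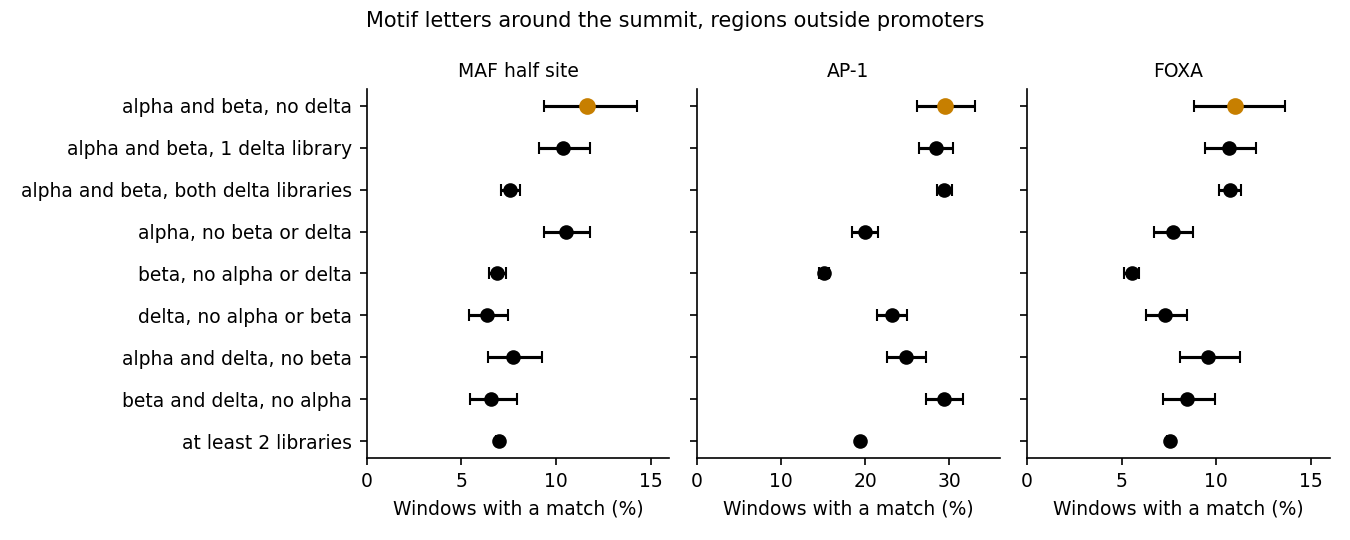
Share of summit windows (%) outside promoters that hold TGCTGAC (MAF motif), TGANTCA (AP-1), or TGTTTAC (FOXA) on either strand, by the cell types with a peak, with 95% Wilson intervals. The alpha and beta set (orange) is at 11.6% for MAF, and the share is 10.4% with 1 delta library and 7.56% with both, while AP-1 and FOXA shares stay at 28.4% to 29.5% and 10.7% to 11.01% over the same 3 sets.

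The alpha and beta set had the highest share of these sets also without beta 1, within 2 classes of GC content, and without AP-1 matches, but most of its intervals then overlapped those of the other sets. With beta 1 left out of every list, the share was 12.4% (8.43 to 17.96) in 185 regions of alpha and beta cells, 7.51% (6.65 to 8.46) in the alpha and delta set, 6.70% (5.07 to 8.79) in the beta and delta set, and 7.55% over regions of at least 2 libraries. In windows with under 45% GC it was 9.61% (6.69 to 13.6), against 6.19% (4.32 to 8.81) in the alpha and delta set and 5.99% (4.6 to 7.77) in the beta and delta set. With more GC it was 13.1% (10.1 to 16.9), against 8.46% (6.82 to 10.5) and 7.32% (5.61 to 9.49), where it lies above the beta and delta interval and overlaps the other. TGCTGAC followed by TCA is also an AP-1 match. Leaving out windows with any AP-1 match, the share was 9.98% (7.56 to 13.1), against 7.0% (5.59 to 8.74) and 5.52% (4.32 to 7.03), again with overlap for the alpha and delta set. Mafa had a peak at the 5′ end in all 7 libraries, delta libraries included, at percentiles of 92.6 to 98.9.

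AP-1 and FOXA motifs marked shared regions whether or not delta cells had a peak. TGANTCA was found in 29.5% (26.1 to 33.1) of the alpha and beta set outside promoters, in 29.4% of the beta and delta set, 24.9% of the alpha and delta set, and 19.4% over regions of at least 2 libraries. TGTTTAC was found in 11.01% (8.83 to 13.6), against 8.43%, 9.56%, and 7.55%. With both delta libraries open, regions of alpha and beta cells had shares of 29.4% and 10.7%. The E-box CAGATGG was found in 12.7% (10.4 to 15.5), against 8.82% (7.51 to 10.3) in the beta and delta set, 9.70% (8.24 to 11.4) in the alpha and delta set, and 9.22% over regions of at least 2 libraries.

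Motifs of RFX and homeobox factors, families with many members in islet cells, were rarer than in 1 of the other sets each. The RFX motif GTTGCCA was found in 4.59% (3.23 to 6.47) of the alpha and beta set and in 8.96% (7.55 to 10.6) of the alpha and delta set, and was higher on only 2 of 20 chromosomes. The homeobox core TAATTA was found in 8.56% (6.65 to 10.96), against 15.97% (14.2 to 17.9) in the beta and delta set, where the windows were also less rich in GC, at a median of 44.0% against 46.0%. In all 24 motifs were searched, and a match is not a bound site.

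Around the regions, the peaks of delta libraries were compared with those of the others. The regions were chosen with the delta labels, and the 21 choices of libraries give no p under 0.0476. The tests therefore cannot show that there is no difference. For each library, the share of regions with a peak 0.5 to 5 kb beyond an edge was divided by the same share over regions of at least 2 libraries. This ratio was 1.02 and 1.12 in alpha 1 and 2, 1.02, 1.12, and 1.07 in beta 1, 2, and 3, and 1.17 and 1.12 in delta 1 and 2. The mean was 1.15 ± 0.0390 (SD, n = 2) in delta and 1.07 ± 0.0534 (SD, n = 5) in the others, a difference of 0.0748 (exact permutation test over the 21 choices of 2 libraries, without direction, p = 0.19, adjusted over 3 measures p = 0.571). Delta 1 had the highest ratio of the 7, and delta 2 lay below alpha 2 and beta 2.

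Around the 68 core regions the delta ratios stood above the other 5. They were 1.28 and 1.27 in delta, 0.935 and 0.955 in alpha, and 0.771, 1.01, and 1.01 in beta, a difference of 0.334 (exact permutation test, p = 0.0476 unadjusted, the smallest the 21 choices can give). This was an alternative setting. Core regions were chosen by strong alpha and beta peaks and no delta peak. The libraries are therefore not interchangeable here, and no conclusion about delta cells is drawn from this p. Delta 1 had a peak 0.5 to 5 kb from 54.4% of the core regions and delta 2 from 32.4%, against 42.6% and 25.6% of all regions of at least 2 libraries.

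Farther out, from 5 to 50 kb, the number of peaks per region divided by the same number over regions of at least 2 libraries was 1.06 in both alpha libraries, 0.954, 1.03, and 1.04 in beta, and 0.978 and 1.03 in delta. The means differed by -0.0275 (exact permutation test, p = 0.571, adjusted p = 0.619). Counting strong peaks alone (-log10 q of 2 or more), the difference was -0.0703 with p = 0.0476 in the exact permutation test. This is an alternative setting, and its p is unadjusted and the smallest the test can give. The nearest gene of regions outside promoters had a peak at its 5′ end in 74.5% and 76.6% of cases in alpha 1 and 2, in 77.7%, 66.1%, and 71.1% in beta 1, 2, and 3, and in 74.9% and 70.2% in delta 1 and 2. Relative to regions of at least 2 libraries the ratios were 1.02 to 1.08 in alpha and beta and 1.04 and 1.06 in delta (exact permutation test, p = 0.619, adjusted p = 0.619).

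**Figure D5:**
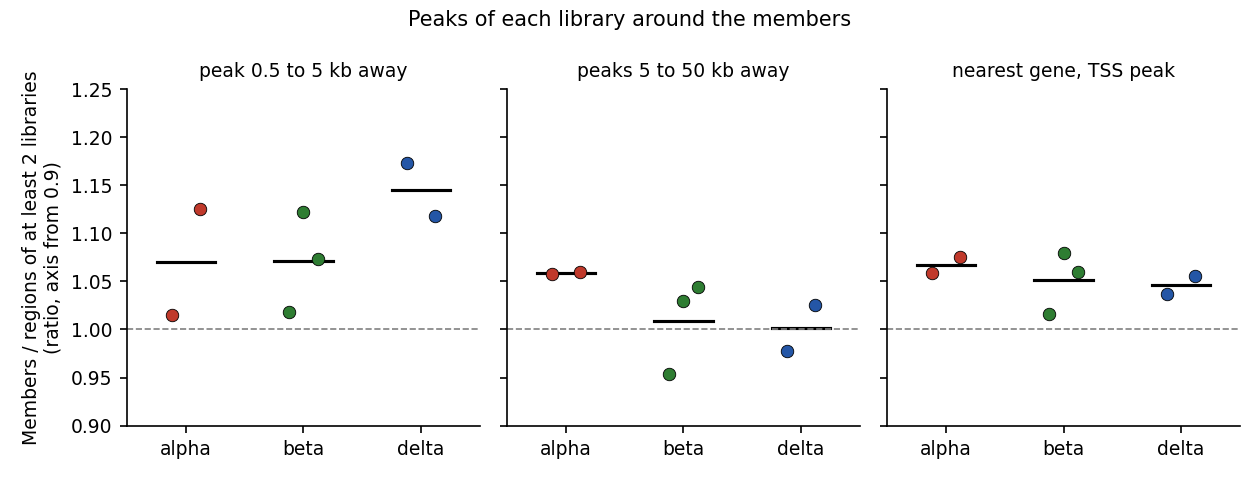
Ratio of each library's measure around the 882 regions to that around all regions of at least 2 libraries (points are libraries, bars are means by cell type, axis from 0.9): a peak 0.5 to 5 kb away, the number of peaks 5 to 50 kb away, and a peak at the 5′ end of the nearest gene. Delta points of 1.17 and 1.12, 0.978 and 1.03, and 1.04 and 1.06 fall within the range of the other libraries in the last 2 panels, and in the first delta 1 lies above it and delta 2 within it.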

How the data were processed

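ATAC-Seq peak lists of 2 alpha, 3 beta, and 2 delta libraries were used, with groups from the deposited labels. The authors trimmed reads with Trimmomatic, aligned them with Bowtie2 to mm10, marked duplicates with Picard, removed blacklisted regions, and ran MACS2 per library, as their methods and processing notes say. Versions are not given in the sources used here. MACS2 gave the authors a -log10 p and a -log10 q for each deposited peak. The fold enrichment in the deposited lists is the authors' ratio of summit signal to local background, and the deposited score is a rounded multiple of -log10 p and was not used. The lowest -log10 p in every list was 2.01. Peak lists hold no read counts. The study lists read totals per library, which differ between libraries and were not used here, so no limit of detection is given for an absent peak, and the part of depth in the presence and absence calls was not tested.

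Intervals repeated for several summits were counted once and overlaps of 1 bp were merged. Strength is the percentile by -log10 p, ties ordered by fold. Regions were annotated with GENCODE M21 (promoter within 3 kb of a TSS, then UTR, exon, intron, 300 bp downstream, distal-intergenic), and a gene start is its 5′ end within 1 kb. Motifs were searched within 150 bases of the median summit on both strands. Named are the 12 regions of highest lowest-percentile among those with a -log10 q of at least 2 in all 5 alpha and beta libraries, the 10 gene starts without a delta peak of highest lowest-percentile, the 6 genes with most regions, and list genes with a core region. Members, lists, motifs, and tests were chosen with earlier results of these data known. The labels call the libraries biological replicates, and p-values measure only the spread between libraries. Steps were tested on simulated lists, where all 400 members made were found. Alternatives were stricter peaks, 50000 peaks per list, coverage of at least 0.5, all 3 beta libraries, other promoter and motif definitions, each library left out, and a replicate block. Python 3.11.15, numpy 2.4.6, pandas 2.3.3, scipy 1.17.1, and matplotlib 3.10.9 were used.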

Additional observations from a re-analysis of the deposited data

How the results depend on the processing

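The number of regions depended on the peak threshold and on single libraries. It was 319 with a -log10 q of at least 2 in every list, 419 with 50000 peaks per list, 68 core regions, and 184 with all 3 beta libraries. Leaving out 1 library gave 253 to 3089 regions, the fewest without beta 1 and the most without delta 1. Coverage of at least 0.5 of a region gave 638. The promoter-proximal share was 17.6% for core regions, 18.4% with upstream windows only, 17.9% with protein-coding genes only, and 22.6% to 30.7% with a library left out. The distal-intergenic share was 47.1% for core regions, 45.1% with all 3 beta libraries, and 32.4% with coverage of at least 0.5, and 33.9% to 42.7% with a library left out. The TGCTGAC share was 15.1% with 50000 peaks per list, 35.8% for TGCTGA, and 8.82% to 13.4% with a library left out, the lowest without alpha 2. The settings without AP-1 and without soft-masked repeat, and the comparison without beta 1, were added after the data were seen.

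For the measures around the regions, the difference between delta and the other libraries 0.5 to 5 kb away was 0.334 for core regions, and that 5 to 50 kb away was -0.0703 with stricter peaks, both at p = 0.0476 in the exact permutation test, the smallest it can give. Both p-values are unadjusted. As the regions were chosen with the delta labels, no conclusion is drawn from them. The nearest gene TSS measure reversed for core regions, from -0.0114 to 0.00513. Over the alternatives p ran from 0.0476 to 0.833, from 0.0476 to 0.833, and from 0.0952 to 1 for the 3 measures. With a library left out, 6 libraries allow no p under 0.0667, and the differences were 0.0472 to 0.102, -0.0511 to -0.0038, and -0.0217 to -0.00218. With the replicate block, in which only libraries of the same number changed places, the differences were 0.0748, -0.0275, and -0.0114, with exact permutation p of 0.333, 0.667, and 0.556, where 0.111 is the smallest possible. The labels do not say that a number marks a shared animal or batch, though libraries may share animals. The causes of these changes were not tested.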

Other observations

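Promoter-proximal regions of alpha and beta cells were less rich in CpG than those open everywhere. A GC content above 50% with an observed to expected CpG ratio above 0.6 was found in 74 of 228 promoter-proximal windows (32.5%), against 73.6% of those open in all 7 libraries, 37.2% over regions of at least 2 libraries, 25.4% in the alpha and delta set, and 9.15% in the beta and delta set. The SP and KLF motif GGGCGG was found in 31.1% of these windows, against 67.5% of those open in all 7 libraries, and the ETS motif CCGGAAG in 2.63% against 16.5%.

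Windows that were more than 50% soft-masked repeat made up 5.67% of the 882 regions (50), against 13.2% over regions of at least 2 libraries, 1.84% in the alpha and delta set, and 6.32% in the beta and delta set. The regions were spread over the chromosomes, with a median gap of 1.94 Mb between neighbours and 4 neighbouring pairs within 10 kb. The Y chromosome had 0 of its 419 regions of at least 2 libraries among them (0 to 0.908%). On the other chromosomes this share ran from 0.441% (0.299 to 0.651) on chromosome 11 to 0.9% (0.669 to 1.21) on chromosome 18. On the X chromosome the share was 0.532% (0.371 to 0.764).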
